A study of Medicago truncatula with 12 samples.

Results

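*MtSWEET9b* is a sugar transporter gene of the barrel medic *Medicago truncatula*, and its transcript level was followed through 12 h of cold, drought and salt stress. It is a member of clade III of the SWEET family, which was taken here as 25 genes. Its row, MTR_7g007490, a gene of chromosome 7 by its identifier, was read in each of 12 libraries, as 1 gene of 54073. It was chosen because earlier results of these data showed it to be high under drought and salt, so its levels and fold changes in those libraries are given as a description, with no test. Its level was near the detection limit in all 3 libraries at 0 h, stayed below 1 FPKM under cold, and stood at 45.1 FPKM after 6 h of drought and at 6.29 FPKM after 12 h of salt.

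The plants were wild type seedlings of the line Jemalong A17, 4 weeks old. For drought they were laid on dry filter paper, for salt they were placed in a nutrient solution with added sodium chloride, and for cold they were kept at low temperature. Seedlings were harvested at 0, 2, 6 and 12 h, and each combination of stress and time gave 1 library, so no difference has a replicate check and no p-value is given. There was no library of unstressed plants at 2, 6 or 12 h, so the effect of a stress and that of the elapsed time or the hour of day cannot be told apart. The libraries hold whole seedlings, and more cells that transcribe the gene cannot be told apart from more transcript per cell. The methods state that the stress tests were repeated, but whether a library pools those repeats, and how many seedlings it holds, was not given in the sources used here, and the tissue label could not be checked against marker genes, because the identifiers matched no named gene.

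SWEET proteins are membrane carriers that let sugars pass down their concentration gradient without an energy source. Clade III carriers move mainly sucrose. In *Arabidopsis*, SWEET11 and SWEET12 release sucrose from leaf cells before it is loaded into the phloem, and SWEET9 is required for nectar secretion. Plants under drought or salt commonly accumulate soluble sugars, which help cells to hold water.

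The primers used to clone the coding region for a yeast transport assay are shown because they give both ends of the coding region of this gene. Capitals mark the 18 bases taken from the gene, and the 6 bases in lower case were added for cloning.
MtSWEET9b forward: gaattcATGTTTTCCTTTTCTGAT
MtSWEET9b reverse: gtcgacAACAATATTCTCTTTCAT
The gene part of the forward primer begins with the start codon. The reverse complement of the gene part of the reverse primer, ATGAAAGAGAATATTGTT, holds no stop codon in frame. The FPKM values imply a transcript of 829 bases for *MtSWEET9b*.

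An FPKM is a count of sequenced fragments, each a read or a read pair. The count is scaled to the length of the gene's transcript and to the mapped fragments of the library. Levels are thus set beside each other per length. Whole fragments were recovered from the FPKM values of 37273 of the 37274 genes above 0, and the libraries held 13565648 to 28092704 mapped fragments. For *MtSWEET9b*, 1 fragment was worth 0.0429 to 0.0889 FPKM, and 1227 fragments were counted in all libraries together. The intervals given with levels and folds are 95% intervals of counting error only (exact Poisson for levels, Clopper-Pearson for ratios), and they do not cover differences between plants. The 3 libraries at 0 h are the nearest to replicates. At least 2-fold apart were 2.34% of the genes between cold and drought, 6.30% between cold and salt and 6.05% between drought and salt.

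Before stress, *MtSWEET9b* was barely detectable. At 0 h its level was 0.0745 FPKM in the cold series (1 fragment), 0.341 FPKM in the drought series (5 fragments) and 0.0811 FPKM in the salt series (1 fragment). Together these 7 fragments gave 0.173 FPKM (0.0696 to 0.357), and the mean of the 3 libraries was 0.165 ± 0.152 FPKM (SD, n = 3). The level at 0 h in the drought series was 4.21 times that in the salt series, with an interval of 0.471 to 199 that holds 1.

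Drought gave the highest levels. *MtSWEET9b* stood at 0.966 FPKM after 2 h of drought (17 fragments, 0.563 to 1.55), at 45.1 FPKM after 6 h (677 fragments, 41.7 to 48.6) and at 28.9 FPKM after 12 h (332 fragments, 25.9 to 32.2). The main part of the increase fell between 2 and 6 h, where the level changed 46.7-fold (28.9 to 80.6). The level at 12 h was 0.641 times that at 6 h (0.560 to 0.732). The libraries of 6 and 12 h of drought held 1009 of the 1227 fragments, or 82.2%.

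Under salt the level went up at each step. It was 1.21 FPKM after 2 h of salt (24 fragments, 0.776 to 1.80), 3.75 FPKM after 6 h (71 fragments, 2.93 to 4.73) and 6.29 FPKM after 12 h (78 fragments, 4.97 to 7.85). The step from 2 to 6 h was 3.09-fold (1.92 to 5.14) and the step from 6 to 12 h was 1.68-fold (1.20 to 2.35). Unlike drought, salt thus had its highest level in the last library.

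Under cold the gene stayed below 1 FPKM. Its level was 0.417 FPKM after 2 h (8 fragments), 0.429 FPKM after 6 h (10 fragments) and 0.267 FPKM after 12 h (3 fragments). The later cold libraries together held 21 fragments and gave 0.391 FPKM, which was 2.26 times the pooled level at 0 h, with an interval of 0.924 to 6.28 that holds 1. Against the 1 fragment of the cold series at 0 h, the fold was 5.59 at 2 h (0.750 to 248), 5.76 at 6 h (0.820 to 250) and 3.58 at 12 h (0.287 to 188). These intervals hold 1, and an increase under cold was not detectable at this depth.

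**Figure D1:**
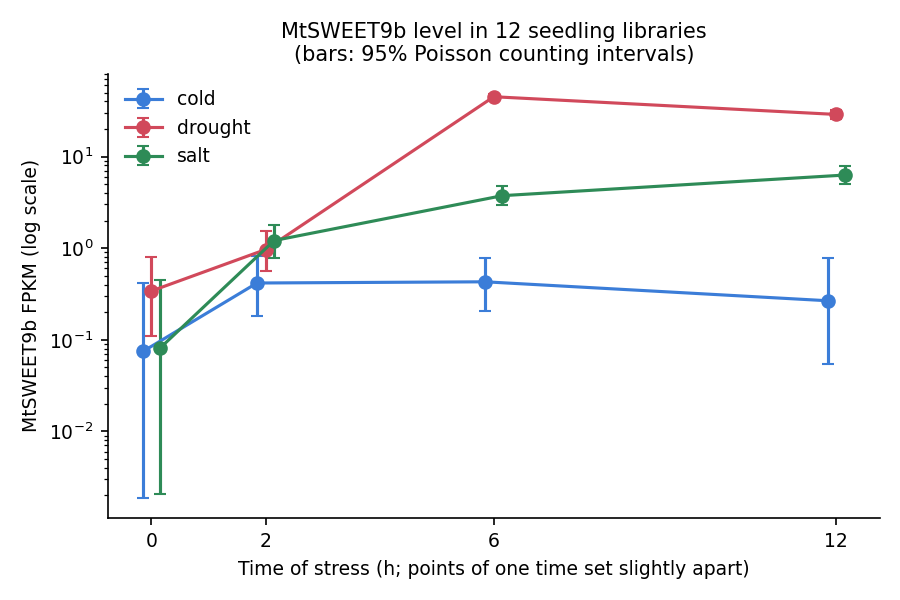
Level of *MtSWEET9b* in each of the 12 libraries (FPKM on a log axis) against the time of stress in hours, 1 line per stress, with 95% Poisson intervals of counting error as bars. The drought line reaches 45.1 FPKM at 6 h, the salt line 6.29 FPKM at 12 h, and the cold line stays at or below 0.429 FPKM.

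When the libraries were ordered by level, 4 of the 11 neighbouring pairs were separated beyond counting error. These were the steps from 6 h of drought to 12 h of drought, to 12 h of salt, to 6 h of salt and to 2 h of salt. Below them, 2 h of salt and 2 h of drought had a ratio of 1.25 (0.646 to 2.49), and 2 h of drought and 6 h of cold a ratio of 2.25 (0.973 to 5.50). The other 7 neighbouring pairs, from 2 h of salt down to 0 h of the cold series, had intervals that hold 1.

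Against 0 h of the same stress, the FPKM of *MtSWEET9b* was 132-fold higher after 6 h of drought (56.4 to 409) and 84.7-fold higher after 12 h (36.0 to 263). Under salt the fold was 46.2 after 6 h (8.03 to 1851) and 77.6 after 12 h (13.5 to 3103). At 2 h the fold was 2.83 under drought, with a log2 interval of 0.0053 to 3.30 that barely leaves out no change, and 14.9 under salt (2.44 to 615). The salt folds rest on the 1 fragment of their 0 h library, and their upper limits are accordingly far off. Set against the pooled libraries at 0 h, which all stresses share, the folds were 260 (126 to 650) and 167 (80.1 to 418) for 6 and 12 h of drought and 21.6 (9.97 to 55.8) and 36.3 (16.8 to 93.3) for 6 and 12 h of salt.

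The scale of the libraries moved slightly with stress. For each library, the log2 FPKM of a gene was taken minus that gene's mean over the 12 libraries. The median of these values over the 24082 genes above 0 in every library is called the median ratio. Its difference from the median ratio of the 0 h library, the shift, lay between -0.27 and -0.10 on the log2 scale. The log2 fold of *MtSWEET9b* relative to that shift was 7.29 and 6.68 after 6 and 12 h of drought and 5.63 and 6.54 after 6 and 12 h of salt. The corresponding log2 folds of the FPKM values as deposited were 7.05, 6.41, 5.53 and 6.28. The direction was the same on both scales.

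Folds against each stress's own 0 h library hide how far drought and salt differed in level. After 12 h the folds were 84.7 and 77.6, but the drought level was 4.59 times the salt level (3.58 to 5.96). After 6 h the drought level was 12.0 times the salt level (9.41 to 15.6). After 2 h the ratio was 0.798 (0.402 to 1.55), which holds 1. Against cold at the same time, the drought level was 2.32 times as high at 2 h (0.949 to 6.21), an interval that holds 1, 105 times at 6 h (56.7 to 220) and 108 times at 12 h (36.7 to 528). The salt level was 2.91 times the cold level at 2 h (1.26 to 7.49), 8.72 times at 6 h (4.48 to 19.0) and 23.6 times at 12 h (7.78 to 117). Salt therefore stood above cold at each of these times, while drought stood above salt only at 6 and 12 h.

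The gene moved from the bottom of the transcriptome to its upper part. Among the 25552 genes with at least 1 FPKM in at least 1 library, its level stood at percentile 3.77, 6.42 and 5.76 at 0 h of cold, drought and salt. It stood at percentile 90.9 after 6 h of drought, with 2327 genes higher, and at percentile 85.5 after 12 h, with 3692 genes higher. Under salt the percentile was 17.3, 37.7 and 52.4 at 2, 6 and 12 h. Under cold it was at most 8.47.

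Its place among all induced genes was read from the log2 fold with 0.1 FPKM added to both values, over genes with at least 1 FPKM in at least 1 library of the stress. A gene was counted as raised when its FPKM was at least 2 times that of 0 h. A gene at 0 at 0 h was counted when its later FPKM was at least 1. After 6 h of drought 14.0% of 24038 genes were raised, and *MtSWEET9b* held place 37 with a log2 fold of 6.68, where the median of the 3376 raised genes was 1.75. After 12 h of drought 12.8% were raised, and it held place 68 with 6.04, where the median of 3086 raised genes was 1.72. These places lay within the top 0.154% and 0.283% of all genes ranked.

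Under salt the place was lower. After 6 h of salt 14.4% of 24418 genes were raised, and *MtSWEET9b* held place 301 with a log2 fold of 4.41, where the median of 3521 raised genes was 1.74. After 12 h of salt 16.6% were raised, and it held place 194 with 5.14, where the median of 4058 raised genes was 1.85. At 2 h it also met the 2-fold rule, at place 1788 under drought, where 10.1% of the genes were raised and a 3-fold threshold ended the call, and at place 966 under salt, where 11.9% were raised. Under cold, where 5.80%, 7.04% and 6.96% of 23266 genes were raised at 2, 6 and 12 h, it met no call because it stayed below 1 FPKM. Since the gene was chosen from these contrasts, nothing is read from its call.

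The place depended on the treatment of low values. Without the added 0.1 FPKM, genes at 0 at 0 h move to the front and *MtSWEET9b* held place 386 and 375 after 6 and 12 h of drought and 901 and 855 after 6 and 12 h of salt. Ordered by the gain in FPKM it held place 610 and 908 under drought and 4311 and 3492 under salt. Ordered by the lower limit of the fold, it held place 42, 72, 261 and 192. Set against the average of all 0 h libraries, it held place 22 and 39 at 6 and 12 h of drought.

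Lowered to 0.5 times or less were 6.60%, 12.5% and 14.8% of the genes at 2, 6 and 12 h of cold, 9.32%, 24.6% and 25.2% at those times of drought, and 14.2%, 16.0% and 26.9% at those times of salt. The share of raised genes among those changed at least 2-fold in either direction moved with scaling. It was 36.4%, 33.7% and 38.2% after 6 h of drought, 12 h of drought and 12 h of salt in the values as deposited, and 48.5%, 47.4% and 49.5% after division by the median ratio. For 6 and 12 h of cold it was 36.0% and 32.0%, and 48.1% and 45.6% after that division. Without the filter on low values it went from 51.9% to 39.8% at 2 h of drought and from 46.8% to 34.2% at 2 h of cold. Part of this drop is built into the rule. Without the filter a gene at 0 at 0 h still needed 1 FPKM to count as raised, while any fall to 0 counted as lowered.

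Of the 36 genes placed above *MtSWEET9b* after 6 h of drought, 20 had an FPKM at least as high as its own and 13 were at 0 at 0 h. Nearly all of them, 35 of 36, were below 1 FPKM at 0 h, as it was itself. After 12 h of drought the corresponding numbers were 46, 17 and 59 of 67 genes. Placed above it in all 4 libraries were 23 genes, and 29 were above it at both times of drought. By the mean of the 4 log2 folds, which was 5.57, it held place 58 of 23234 genes.

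**Figure D2:**
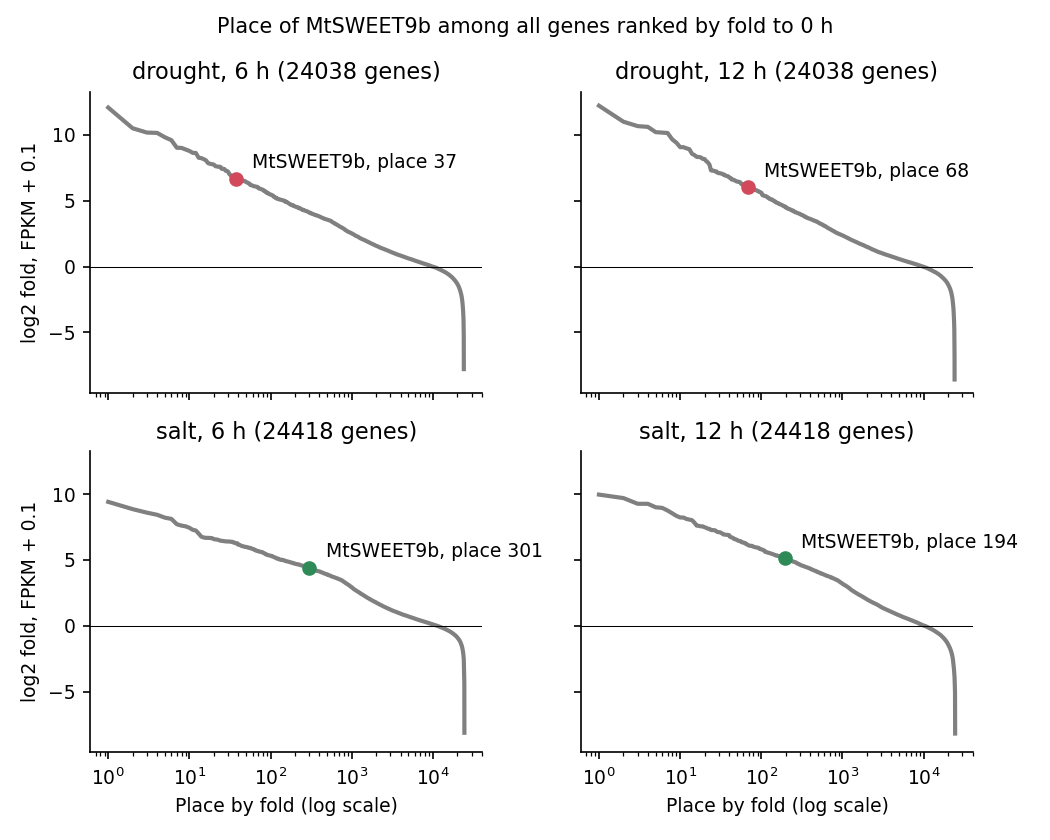
Genes ordered by their log2 fold against 0 h, with 0.1 FPKM added, after 6 and 12 h of drought and salt, with the place of *MtSWEET9b* marked. It held places 37 and 68 under drought and places 301 and 194 under salt.

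The raised set common to both stresses gives a frame for the shape of its response. At 6 and 12 h of drought and salt alike 1443 genes were raised, 6.21% of 23234, and *MtSWEET9b* was 1 of them. Of these genes, 523 (36.2%) were also raised at some time of cold and 920, or 3.96% of 23234, were not. *MtSWEET9b* was in the latter set only through the minimum of 1 FPKM, since its folds under cold were above 2 and it met the rule at all 3 times of cold without the filter. It was also among the 637 genes (44.1%) raised at 2 h of both stresses. Of all genes tested, 10.1% were raised at 2 h of drought and 11.9% at 2 h of salt. At 2, 6 and 12 h of cold 5.80%, 7.04% and 6.96% were raised. These are shares at single times, unlike the 36.2% and the 44.1%. A start below 1 FPKM in all 3 libraries at 0 h was seen for 367 of the 1443 genes (25.4%). Among all 25552 genes with at least 1 FPKM in at least 1 library, 2472 had such a start.

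Within this set the gene lay near the upper end of the ratio of drought to salt. Drought exceeded salt at both 6 and 12 h in 571 of the 1443 genes (39.6%), but by at least 2 times in 74 (5.13%) and by at least 4 times in 16, of which *MtSWEET9b* was 1. Its log2 ratio of drought to salt at 6 h, with 0.1 FPKM added, was 3.55 and held place 2 of the 1443, where the median was 0.24 and the quartiles were -0.14 and 0.63. At 12 h its log2 ratio was 2.18 and held place 30, where the median was -0.09 and the quartiles were -0.64 and 0.47. These are descriptions of single libraries, and no test was made. The direction of its change from 6 to 12 h, down under drought and up under salt, was shared by 561 of the 1443 genes (38.9%). The opposite pattern was seen in 153, an increase in both in 458 and a decrease in both in 271.

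**Figure D3:**
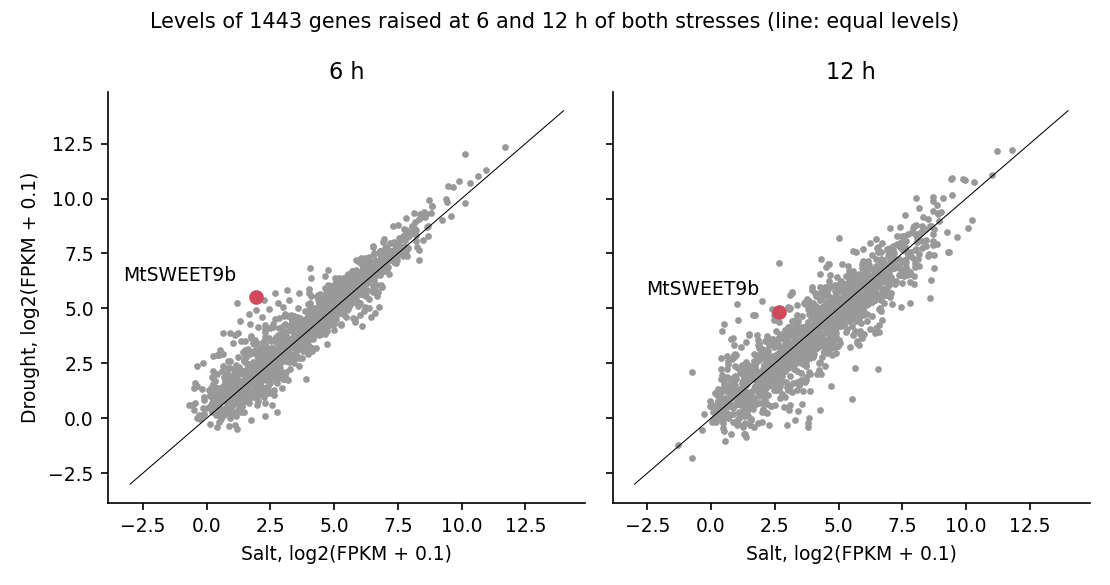
Levels under drought against levels under salt at 6 h and at 12 h, both as log2(FPKM + 0.1), for the 1443 genes raised at both times of both stresses, with the line of equal levels. *MtSWEET9b* lies above the line, by 3.55 at 6 h and by 2.18 at 12 h.

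Within its family *MtSWEET9b* went from a negligible member to the 3rd by FPKM at 6 and 12 h of drought. Per length, it made up 0.173% of the summed FPKM of the 25 *MtSWEET* genes at 0 h of drought, 0.555% at 2 h, 14.3% at 6 h and 9.10% at 12 h. Under salt its share was 0.0394% at 0 h, 0.547% at 2 h, 1.45% at 6 h and 2.86% at 12 h. Under cold it was at most 0.154%. As a share of fragments, which favours long transcripts, its part at 6 h of drought was 8.72%, and within clade III it was 15.7% of the FPKM. By FPKM it stood 12th in the family at 0 h of drought and 3rd at 6 and 12 h, and 6th at 6 and 12 h of salt. Counted in fragments, its 677 at 6 h of drought were close to the 675 of *MtSWEET2b*. At 12 h of drought its share of fragments was 5.58%. Its 332 fragments there were fewer than the 438 of *MtSWEET2b* and the 377 of *MtSWEET14*, so the 3rd place at 12 h depends on the division by length.

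The genes above it in FPKM at 6 and 12 h of drought were *MtSWEET13* and *MtSWEET12*, both of clade III. The level of *MtSWEET13* was 46.4, 29.8, 171.7 and 197 FPKM at 0, 2, 6 and 12 h of drought and 55.8, 88.1, 147.6 and 76.7 FPKM at the same times of salt. That of *MtSWEET12* was 73.9, 87.5, 47.9 and 37.0 FPKM under drought and 74.2, 41.9, 39.8 and 56.7 FPKM under salt. *MtSWEET13* was thus already abundant before stress and reached a log2 fold of 1.89 (1.79 to 1.98) at 6 h of drought, and *MtSWEET12* was lower at 6 and 12 h of both stresses than at 0 h. The family sum went from 197 to 315 FPKM between 0 and 6 h of drought, and without *MtSWEET9b* it was 270 FPKM at 6 h.

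*MtSWEET9a*, which bears the most similar name in clade III, was detected with 1 fragment in the library of 6 h of drought and 1 in that of 2 h of salt, and its highest level was 0.0727 FPKM. How reads that match more than 1 gene were counted was not given in the sources used here. Among the other 9 genes of clade III, 4 passed the filter under drought. *MtSWEET13* was raised and *MtSWEET15c* lowered at both 6 and 12 h. Under salt *MtSWEET13* and *MtSWEET15c* were raised at 6 h, and at 12 h no other clade III gene was raised and *MtSWEET15c* was lowered. That last call rested on 7 fragments against 16 at 0 h, with a fold interval of 0.151 to 1.12 that holds 1.

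Of all 24 other *MtSWEET* genes, 12 passed the filter under drought and 10 under salt. After 6 h of drought 3 were raised (*MtSWEET3a*, *MtSWEET7* and *MtSWEET13*), beside 14.0% of all genes, and 3 were lowered, beside 24.6%. After 12 h of drought *MtSWEET3b* joined the raised genes, which made 4, beside 12.8% of all genes, and 4 were lowered, beside 25.2%. After 6 h of salt 4 were raised, *MtSWEET1a*, *MtSWEET7*, *MtSWEET13* and *MtSWEET15c*, beside 14.4% of all genes, and 2 were lowered, beside 16.0%. After 12 h of salt 3 were raised, *MtSWEET1a*, *MtSWEET2b* and *MtSWEET7*, beside 16.6% of all genes, and 4 were lowered, beside 26.9%. Of the lowered genes, *MtSWEET15c* had a fold interval that holds 1 (0.151 to 1.12). The median log2 fold of those that passed was 0.08 at 6 h and -0.32 at 12 h of drought, against -0.20 and -0.23 over all genes, and 0.09 and -0.66 at these times of salt, against -0.08 and -0.22. *MtSWEET7* of clade II was the only other member to go from under 1 FPKM at 0 h to above it under both stresses. It reached 3.37 FPKM at 12 h of drought (36 fragments against 3 at 0 h) and 1.30 FPKM at 6 h of salt (23 fragments against 0 at 0 h).

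**Figure D4:**
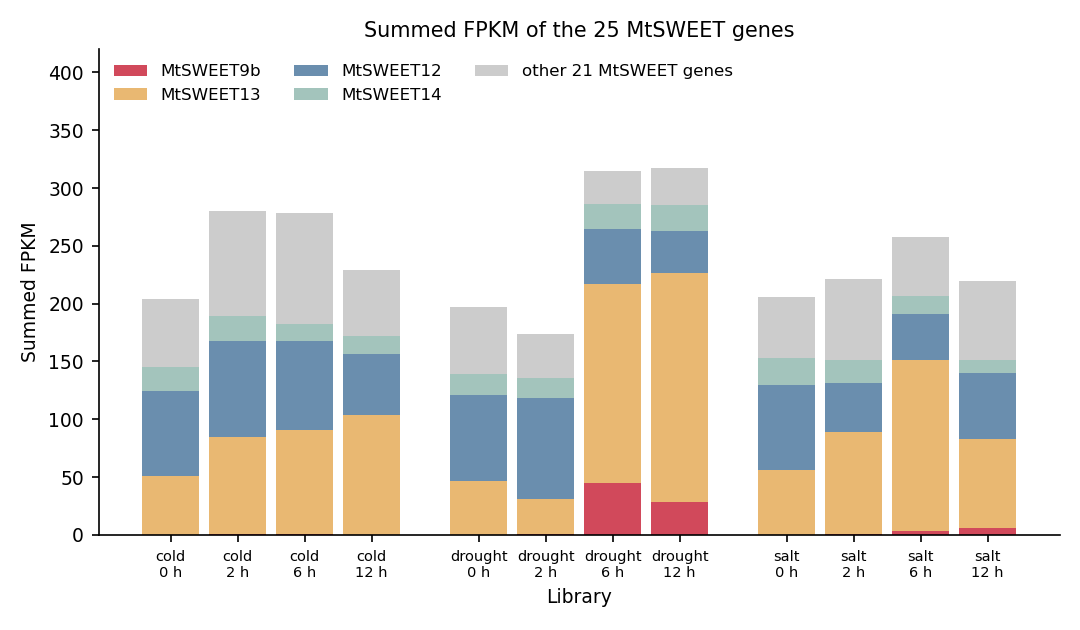
Summed FPKM of the 25 *MtSWEET* genes in each of the 12 libraries, as stacked bars for *MtSWEET9b*, *MtSWEET13*, *MtSWEET12*, *MtSWEET14* and the remaining genes. The share of *MtSWEET9b*, at the foot of each bar, is 14.3% at 6 h and 9.10% at 12 h of drought and at most 2.86% in the salt libraries.

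Likeness of profile was measured as Pearson's r on log2(FPKM + 1) over the 12 libraries, as a description. The libraries share stress and time, and libraries of one stress are not independent. Of 25551 genes compared, 339 (1.33%) had an r of at least 0.9, 47 had at least 0.95, and the median r was -0.16. The last gene inside had an r of 0.9001 and the first outside one of 0.8999. The list depended on the measure. Spearman's rho gave 312 genes, of which 98 were among the 339 (28.9%), so that a near number held mostly other genes. The number was 153 with FPKM not in logarithms, of which 92 were among the 339, and 585 after division by the median ratio, of which 337 were among the 339. Without the library of 12 h of drought it was 212, of which 171 were shared.

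By this measure the gene with the most similar profile was MTR_5g089580, to which no name could be given, with an r of 0.983. It held place 5 with 0.1 FPKM added in place of 1, place 35 by Spearman's rho and place 38 on FPKM. Its level was 2.94, 3.87, 37.5 and 40.5 FPKM at 0, 2, 6 and 12 h of drought, 2.15, 5.28, 6.84 and 13.0 FPKM at the same times of salt, and 2.23, 2.34, 4.71 and 3.25 FPKM under cold. It shared the order drought above salt above cold at 6 and 12 h, but started above 2 FPKM and reached 12.7-fold (8.54 to 19.8) at 6 h of drought. The second, MTR_1g066590, with an r of 0.982, was counted with at most 6 fragments in any library and was at 0 in all libraries but 2, 6 and 12 h of drought and 6 and 12 h of salt. Its r therefore rests on few fragments, and it held places 71, 677 and 60 by the same alternatives.

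The 339 genes were selected for following *MtSWEET9b* over these libraries, so their high levels under drought and salt come with the selection and are given as a description. As a group they had smaller fold changes than *MtSWEET9b*. Their median log2 fold was 2.24 and 2.33 at 6 and 12 h of drought and 1.45 and 1.53 at 6 and 12 h of salt, against -0.19, -0.22, -0.07 and -0.21 over the genes compared. Only 13, 27, 28 and 27 of them had a larger fold than *MtSWEET9b* at these 4 points. Of the 339, 195 had their highest level at 12 h of drought, 137 at 6 h of drought and 7 at 12 h of salt. Their levels before stress were higher, with a median of 5.18 FPKM at 0 h, and 104 (30.7%) were below 1 FPKM in all 3 libraries at 0 h. Raised at all 4 points were 175 of them (51.6%), beside 6.21% of all genes, and they made up 12.1% of the 1443 genes raised there.

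**Figure D5:**
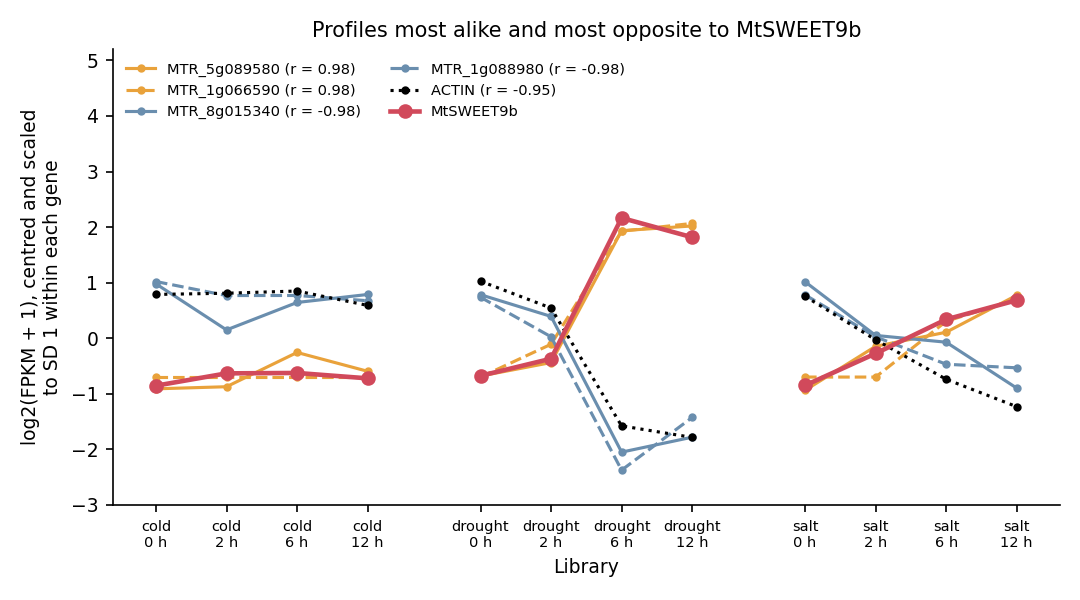
Profiles over the 12 libraries of *MtSWEET9b*, of the genes with the highest and the lowest r to it and of *ACTIN*, as log2(FPKM + 1) centred and scaled to an SD of 1 within each gene, 1 line per gene. The libraries of 6 and 12 h of drought hold the highest values of *MtSWEET9b* and the lowest values of the genes with an r near -0.98 and of *ACTIN*.

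In the values as deposited 790 genes (3.09%) ran opposite to *MtSWEET9b*, with an r of -0.9 or less. Their excess over the 339 like genes depended on the scale, since 577 opposite and 585 like genes were found after division by the median ratio, and 5 opposite and 153 like genes with FPKM not in logarithms. In the other alternatives opposite genes outnumbered like genes. They numbered 1515 against 417 with 0.1 FPKM added and 1284 against 312 by Spearman's rho. The lowest r as deposited, -0.980, was that of MTR_8g015340, whose level was 5.57, 4.48, 0.763 and 0.997 FPKM at 0, 2, 6 and 12 h of drought. The next was MTR_1g088980 with -0.979, whose level was 17.1, 14.1, 7.06 and 9.31 FPKM at the same times. Both were lowest at 6 h of drought, where *MtSWEET9b* was highest. Their places from the lowest r moved with the measure. With 0.1 FPKM added, by Spearman's rho and on FPKM, MTR_8g015340 held places 39, 30 and 139. MTR_1g088980 held places 30, 495 and 25 by these alternatives, and place 102 after division by the median ratio.

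Among the other *MtSWEET* genes, 13 could be compared and 0 had an r of at least 0.9. The nearest were *MtSWEET7* with 0.81 and *MtSWEET13* with 0.71. The 1 gene of the family at -0.9 or less was *MtSWEET3c* of clade I, with -0.91. It did not reach -0.9 after division by the median ratio (-0.897), by Spearman's rho (-0.888), without 6 h of drought (-0.867) or on FPKM (-0.621). Its level was 12.5, 6.26, 0.760 and 2.45 FPKM at 0, 2, 6 and 12 h of drought and 14.0, 6.27, 3.47 and 1.57 FPKM at the same times of salt. Its log2 fold of -4.04 (-4.84 to -3.33) at 6 h of drought had the opposite sign to that of *MtSWEET9b*. The study's qRT-PCR, however, showed *MtSWEET3c* going up under drought, highest at 12 h, so its direction differed between the 2 methods.

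The *ACTIN* gene, the reference of the qRT-PCR experiments, also had a negative r, -0.95. The r of *ACTIN* was -0.88 after division by the median ratio, -0.80 by Spearman's rho and -0.77 on FPKM. It stayed below -0.9 in the other alternatives. Its level was 275, 253, 174 and 168 FPKM at 0, 2, 6 and 12 h of drought, 262, 228, 202 and 185 FPKM at the same times of salt, and 255 to 267 FPKM under cold. Relative to the shift in scaling, its log2 fold was -0.42 and -0.44 at 6 and 12 h of drought and -0.28 and -0.24 at 6 and 12 h of salt. A ratio of *MtSWEET9b* to *ACTIN* therefore has a larger fold than its FPKM. The log2 fold of that ratio was 7.71 and 7.12 at 6 and 12 h of drought and 5.91 and 6.78 at 6 and 12 h of salt.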

How the data were processed

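The labels gave the stress and time of each library. The authors deposited FPKM values, 1 per gene and library. Their methods name Tophat and StringTie on the Mt4.0v1 genome, whereas the submitters' processing notes name HTSeq and DESeq, with no role. The labels describe a 3′-tag library kit. If only transcript ends were read, division by transcript length would distort levels between genes but not the folds of 1 gene.

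*MtSWEET9b* and the gene lists were chosen with earlier results of these data known. Genes named were the *MtSWEET* genes, *ACTIN*, and the 2 highest and 2 lowest in r to *MtSWEET9b*, as identifiers, since 0 identifiers matched the RefSeq gene table. Whole fragments, depth and transcript length were recovered from the FPKM values themselves, up to 60000 fragments. Genes with at least 1 FPKM in a library of the stress were ranked. No count model was fitted, as FPKM is a normalised unit. Libraries of 13565648 to 28092704 mapped fragments set the counting intervals, which are wide for *MtSWEET9b* at 0 h. The recovery of fragments, the calls of raised and lowered genes and the intervals were tested on simulated data. Calls and intervals were tested only on genes with higher expected counts than *MtSWEET9b* had at 0 h. The ranking and the likeness of profile were not simulated. Alternatives changed the pseudocount, filter, threshold, scaling, control and correlation, and division by *ACTIN* was added after seeing the data. Figures were drawn with matplotlib 3.10.9, and values computed with scipy 1.17.1, pandas 2.3.3 and numpy 2.4.6 in Python 3.11.15. Yeast, microarray and qRT-PCR data were not analysed here.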

Additional observations from a re-analysis of the deposited data

Results flagged for a closer look

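From 6 to 12 h the level of *MtSWEET9b* changed in opposite directions under the 2 stresses. The log2 change was -0.64 (-0.84 to -0.45) under drought, from 45.1 to 28.9 FPKM, and 0.75 (0.27 to 1.23) under salt, from 3.75 to 6.29 FPKM. Each change comes from 1 library at each time, with intervals of counting error only, and the difference between them was not tested.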

How the results depend on the processing

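No paired analysis was possible because each condition had 1 library and the labels carry no replicate numbers. For the same reason no library could be left out as a replicate. The log2 folds of *MtSWEET9b* at 6 and 12 h of drought and at 6 and 12 h of salt were 5.10, 4.48, 2.13 and 2.75 with 1 FPKM added, and in the other 20 of 24 alternatives they stayed within their counting intervals. No alternative reversed a direction. Its place was within 1.5 times the reported one in 15 of 28 alternatives. At 6 and 12 h of drought it was 386 and 375 with nothing added, 22 and 39 against the mean of the libraries at 0 h, and 610 and 908 by the gain in FPKM. At 6 and 12 h of salt it was 901 and 855 with nothing added, 492 and 384 with 1 FPKM added, 4311 and 3492 by the gain in FPKM, and, at 6 h, 172 among genes of at least 5 FPKM. The genes of like profile numbered 312 by Spearman's rho, with 98 shared, 153 with r on FPKM, 212 without 12 h of drought and 585 after division by the median ratio. The family share at 6 h of drought was 8.72% of fragments and 15.7% of clade III FPKM. At a 3-fold threshold *MtSWEET9b* was no longer raised at 2 h of drought, and without the filter it was raised at all times of cold. At that threshold the raised genes at 2, 6 and 12 h numbered 774, 903 and 777 under cold, 1286, 1998 and 1863 under drought, and 1800, 2105 and 2587 under salt. Depth limits chiefly the 0 h libraries, with 1 to 5 fragments of the gene.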

Other observations

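Among 2472 genes that were below 1 FPKM in all 3 libraries at 0 h and reached 1 FPKM later, *MtSWEET9b* held place 18 by level at 6 h of drought, 36 at 12 h of drought, 156 at 6 h of salt and 120 at 12 h of salt.

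The genes with identifiers next to that of *MtSWEET9b* on chromosome 7 had an r to its profile of -0.01 to 0.72, in the 7 with at least 1 FPKM in a library. Of the 5 genes on each side by identifier number, 3 were below 0.1 FPKM in all libraries, both immediate neighbours included. Of the 10 genes, 4 were raised at 6 h of drought, beside 14.0% of all genes, 4 at 12 h of drought, beside 12.8%, 2 at 6 h of salt, beside 14.4%, and 1 at 12 h of salt, beside 16.6%. At all of these 1 was raised, beside 6.21% of all genes. With 10 genes, nothing is read from these counts.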
